A study of Mus musculus with 28 samples.

Results

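The NMDA receptor subunit genes Grin1, Grin2a, Grin2b, Grin2c, Grin2d and Grin3a, 6 of the 23453 genes with exonic counts and of the 20422 genes with intronic counts, were followed through 28 single cells of the mouse cortex. The genes were chosen by name, as the obligatory subunit, the 4 GluN2 subunits and the GluN3A subunit, and not by their counts. By the sample labels, 12 of the cells were neurons and 8 were astrocytes from primary culture of C57/BL6 cortex, each taken up in a pipette, and 8 were interneurons of C57/BL6/N mice, drawn from acute cortical slices with a patch clamp pipette. The cultured cells were prepared with the TruSeq Nano DNA kit and read on a NextSeq, and the interneurons with a TruSeq Stranded kit on a HiSeq, so that cell source, kit and sequencer cannot be told apart. The growth protocol in the labels speaks of a perfused adult male for the cultured cells, whereas the study's methods describe dispersed embryonic cultures. No animal or culture is named for any cell.

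NMDA receptors are glutamate-gated cation channels that also need a co-agonist, glycine or D-serine. Each channel holds the obligatory subunit GluN1, encoded by Grin1, which binds the co-agonist, together with GluN2 subunits, which bind glutamate, or GluN3 subunits, which bind glycine. The GluN2 subunits set the kinetics and the magnesium block. In rodent forebrain GluN2B (Grin2b) is known as the early subunit and GluN2A (Grin2a) as the one that joins it during maturation, whereas GluN2C (Grin2c) is best known from the cerebellum and GluN2D (Grin2d) from interneurons and the brainstem. GluN3A (Grin3a) lowers the calcium permeability of the channel and is known as a juvenile subunit.

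The columns of the count tables carry codes, 20 beginning with BRP and 8 with F, and 0 of the 28 codes match a sample label. The columns were therefore described in 3 blocks: block A, with 8 columns (BRP564 and BRP566 to BRP572), block B, with the 12 other BRP columns (BRP528, BRP529 and BRP534 to BRP543), and F, with 8 columns (F1, F2, F6, F7, F11, F12, F16 and F24). The block sizes equal those of the labelled groups, but the columns were given no cell type here, and the line between the 2 BRP blocks was drawn with marker levels known. Values are therefore given per column, as range and median, and no test between blocks was made.

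The markers in each block were read beside the members. Levels are exonic counts per 1000000 exonic counts of the column (CPM). The summed level of 9 astrocyte markers ran from 2674 to 7155 CPM in block A, from 208 to 2463 CPM in block B and from 1.19 to 4363 CPM in F. The summed level of 7 neuron markers ran from 299 to 801 CPM, from 4898 to 9982 CPM and from 1608 to 17800 CPM in the same order. The 7 GABAergic markers summed to at least 1059 CPM in every F column, and to more than 1000 CPM in 1 other column, BRP528, at 3765 CPM. The 6 glutamatergic markers had a median sum of 600 CPM in block B, 0.302 CPM in block A and 2.19 CPM in F. Endothelial and mural markers summed to at most 55.4 CPM in any column. S100b and Aldh1l1 of the astrocyte markers had no count in any F column, and Lhx6 of the GABAergic markers had none in block A.

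Several columns stood apart. F11 and F12 resembled each other, with a Pearson r of 0.956 over log2 CPM of 11732 genes, where the next pair of F columns reached 0.409. Their counts differed with a chi-square of 17.6 per degree of freedom over 1900 genes. This value cannot show whether they came from the same cell, since the reads of amplified libraries are not independent molecules. F16 was the shallowest column, at 838343 exonic counts, and its microglia markers summed to 2093 CPM, almost all from Csf1r, with C1qa at 0. F7 held oligodendrocyte lineage markers at 3387 CPM, mostly Olig1, and its astrocyte markers summed to 4363 CPM, of which Slc1a2 gave 4350. In block B the astrocyte sum was highest in BRP538 (2463 CPM), of which Slc1a2, a glutamate transporter, gave 2459. The other 8 astrocyte markers summed to 1449 CPM in BRP528 and 1182 in BRP529 and to at most 129 in the other block B columns. BRP528 and BRP529 also held oligodendrocyte lineage markers at 742 and 1261 CPM, and BRP541 held the latter at 974 CPM. Every block A column held oligodendrocyte lineage markers too, at 563 to 1311 CPM with a median of 936 CPM. Their median sum was 26.3 CPM in block B and 0.842 CPM in F. The part of these markers in the levels below was not tested. Exonic totals ran from 838343 to 26770944 counts per column and intronic totals from 831965 to 11098985. The F columns held a median of 50.4% of their counts in introns, against 8.75% in block A and 15.7% in block B.

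**Figure D1:**
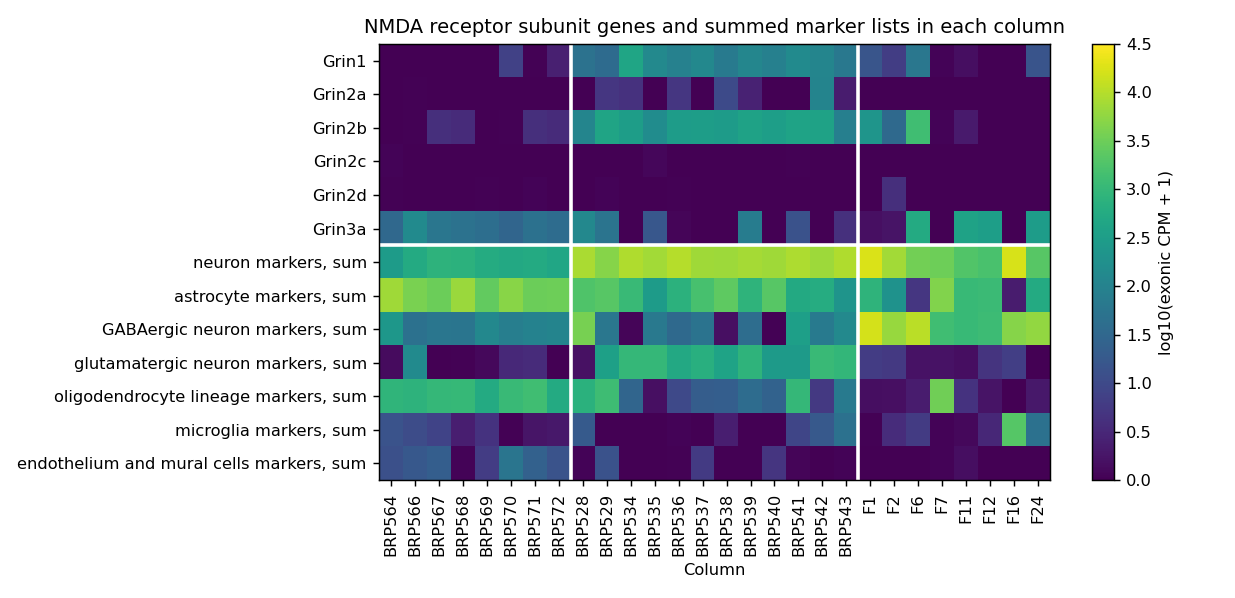
The heat map gives log10(exonic CPM + 1) of the 6 members (upper rows) and of the summed marker lists (lower rows) in each of the 28 columns, with white lines between block A, block B and F. In all 12 block B columns, where the neuron markers sum to 4898 CPM or more, Grin1 is at 35.9 CPM or more and Grin2b at 85.2 or more. In all 8 block A columns, where the astrocyte markers sum to 2674 CPM or more, Grin3a lies between 28.5 and 139 CPM. Grin3a is highest in F6, F11, F12 and F24, at 311 to 559 CPM.

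The 6 genes belong to one family, so how far their sequences can be told apart bears on every count. The 30 coding bases of Grin1 best matched by the other members together lie at the end of the third membrane segment. This segment is the channel-lining helix, among the most conserved stretches of glutamate receptors. The 30 bases were chosen by match to Grin1 alone. Grin2b and Grin2c, and Grin2c and Grin2d, shared longer unbroken stretches elsewhere, as given below. Over 30 bases, 18 are the same in all 6 genes and stand in capitals. Positions are on GRCm38 (mm10), and each of the 5 sequences shown was read from the reference genome on the coding strand, 5′ to 3′.
Grin1, chr2:25297193-25297222, minus strand: TAcACtGCcAAccTgGCaGCctTCcTGgTg
Grin2a, chr16:9653441-9653470, minus strand: TAcACaGCcAAccTgGCtGCctTCaTGaTc
Grin2b, chr6:135772238-135772267, minus strand: TAcACtGCcAActTaGCcGCctTCaTGaTc
Grin2c, chr11:115253743-115253772, minus strand: TAcACgGCcAAtcTgGCaGCctTCaTGaTc
Grin3a, chr4:49770464-49770493, minus strand: TAcACaGCgAActTgGCtGCtgTCaTGgTa
Compared with Grin1, the other members kept from 22 (Grin3a) to 25 (Grin2a and Grin2c) of the 30 bases. No pair of members shared an unbroken coding stretch longer than 34 bases, the value for Grin2b and Grin2c. Grin2c and Grin2d shared up to 32 bases. Pairs with Grin1 or Grin3a shared at most 14.

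In the GENCODE M21 annotation the members also differ in size. All lie on the minus strand. Grin1 (chr2:25291181-25319187) spans 28.01 kb with 9.70 kb of exon, counting every annotated exon once. Grin2b (chr6:135713233-136173511) spans 460 kb with 24.8 kb of exon, and Grin2a (chr16:9567898-9995560) spans 428 kb with 17.9 kb of exon. Grin2c (chr11:115249169-115267243) spans 18.1 kb with 5.04 kb of exon, Grin2d (chr7:45831883-45878378) spans 46.5 kb with 6.66 kb of exon, and Grin3a (chr4:49661611-49845744) spans 184 kb with 12.3 kb of exon. Since a long gene gathers more counts, levels were compared between genes only per kilobase (kb) of exon, or of intron for intronic counts.

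Grin1, the obligatory subunit, had exonic counts in 21 columns, all 12 of block B, 3 of block A and 6 of F. In block B its level ran from 35.9 CPM in BRP529 to 439 CPM in BRP534, with a median of 102 CPM, and rested on 802 to 9229 counts per column. In block A, 5 of 8 columns had no Grin1 count, BRP571 had 1, BRP572 had 27 (1.47 CPM) and BRP570 had 130 (6.57 CPM). In F the level was 59.3 CPM in F6, 14.5 in F1, 13.7 in F24 and 5.60 in F2, with at most 2 counts in each of the other 4 columns. Thus the lowest block B column stood above the highest block A column, at 35.9 against 6.57 CPM, whereas F6 lay within the range of block B. The next level below BRP534 was 141 CPM, in BRP541.

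A count of 0 does not mean the same in every column. With 3 counts as the limit that a count of 0 allows, the limit was between 0.152 and 0.231 CPM in block A, and it was 3.58 CPM in F16. These limits cover counting error only, since the reads of amplified libraries are not independent molecules.

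Grin2b, the subunit of the early forebrain receptor, was the GluN2 gene with the most exonic counts. In block B its exonic level ran from 85.2 CPM in BRP543 to 416 CPM in BRP529, with a median of 316 CPM. In block A its level was at most 3.03 CPM: 4 columns held 42 to 59 counts, BRP566 and BRP570 held 1 each, and BRP564 and BRP569 held none. The 2 blocks did not overlap. In F the levels spread from 0 to 1321 CPM. F6 held 1321 CPM, F1 225 CPM and F2 33.2 CPM, F11 held 5 counts and F7 held 1, and F12, F16 and F24 held none. F6 thus stood above all 12 block B columns, and 6 of the 8 F columns stood below all of them.

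Of the 6 members, Grin1 and Grin2b, 2 in all, were higher in every block B column than in every block A column, a pattern found in 413 of 16068 genes with a count in at least 3 columns (2.57%). No member was higher in every block A column, which 525 genes were (3.27%). No member was higher in every block B column than in every F column, a pattern of 1414 genes (8.8%), and for no gene at all was every F column above every block B column (0%). The blocks were drawn with marker levels known, so these counts describe the columns and are no support for the blocks.

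**Figure D2:**
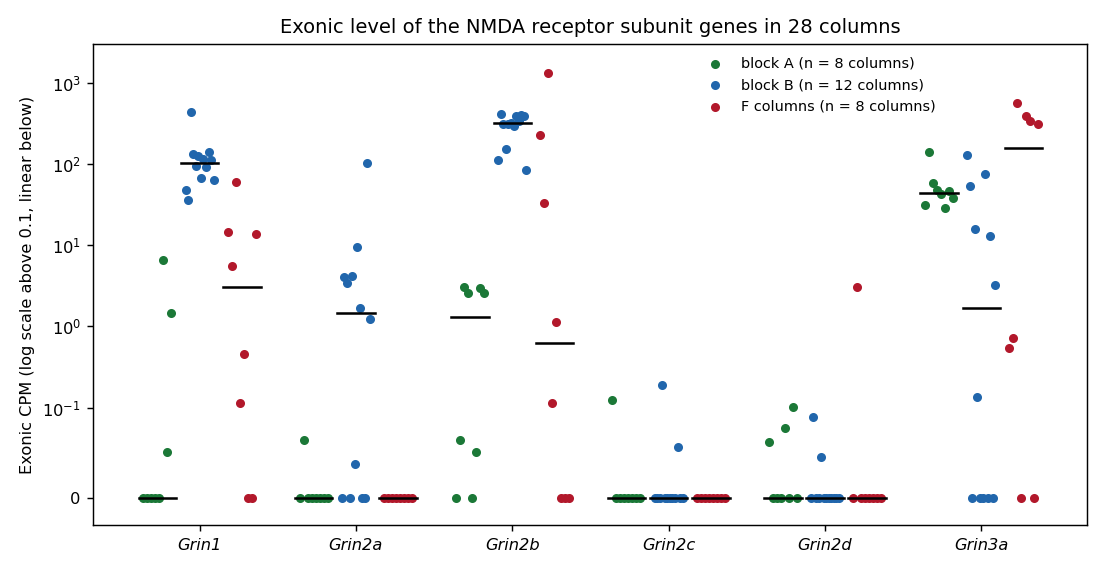
Each point is the exonic level (CPM) of a member in 1 column, coloured by block, on an axis that is logarithmic above 0.1 CPM and linear below, and each black bar is the block's median. Grin1 and Grin2b part the block B columns from the block A columns, and Grin2c and Grin2d lie near 0. Grin3a lies between 28.5 and 139 CPM in all block A columns. It spreads from 0 to 127 CPM in block B, and in F it falls into high and low columns.

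Grin2a, the subunit that joins the receptor as the forebrain matures, had few exonic and many intronic counts. These lay over 17.9 kb of exon and 410 kb of intron. Per kb of intron, the median of Grin2a over the 28 columns was 0.200 intronic CPM, below 0.247 for Grin1 and 0.678 for Grin2b. Exonic counts summed to 2673 over the 28 columns, and 80.0% of them came from BRP542, with 2139 counts and a level of 104 CPM. The next column was BRP538 with 211 counts (9.45 CPM), 5 more block B columns held 24 to 93 counts, and BRP537 held 1. BRP528, BRP535, BRP540 and BRP541 held none. Grin2a had 1 exonic count in block A, in BRP566, and none in any F column. Grin2a intronic counts, by contrast, summed to 113327 and were present in 27 of the 28 columns. BRP542 led again with 53747 intronic counts, followed by BRP540 with 22524, BRP537 with 18600 and BRP539 with 7395. BRP540 therefore held 22524 intronic counts of Grin2a and no exonic count, and BRP537 held 18600 beside 1.

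Grin2c and Grin2d, the other GluN2 genes, were near the limit of the counts. Grin2c had 7 exonic counts in all, with 4 in BRP535, 2 in BRP564 and 1 in BRP541, and no intronic count in any column. Of 32 neighbours of Grin2c on its strand within 1000 kb, 16 had an intronic count, and of the 22 with at least 1000 exonic counts, 13 had one. For the other members, neighbours with an intronic count were 25 of 31 (Grin1), 8 of 12 (Grin2a), 13 of 14 (Grin2b), 48 of 51 (Grin2d) and 6 of 7 (Grin3a). Whether this bears on the 0 of Grin2c was not tested. Grin2d had 24 exonic counts in all, of which 17 were in F2 (3.07 CPM). F2 also held 1058 of the 1406 intronic counts of Grin2d, and F16 held 202 of them, whereas every other column held 29 or fewer. The start of Grin2d overlaps Kdelr1, which lies on the opposite strand and encodes a receptor that returns proteins to the endoplasmic reticulum. Kdelr1 had 84669 exonic counts over the 28 columns, with none in F2 and 2 in F16, and its intronic counts were 1 in F2 and 4 in F16. The part of overlapping genes in the Grin2d counts was not tested.

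The share of each GluN2 gene within a column does not depend on the depth of that column. Exonic counts per kb were divided by the sum over Grin2a to Grin2d, in the 19 columns with at least 20 exonic counts on the 4 genes. Grin2b led in 19 of 19, with a median share of 99.4% and a range of 73.1% to 100%. In block A 4 columns could be read. The share of Grin2b was 100% in BRP567, BRP568 and BRP572, and in BRP571 it was 88.8% beside 11.2% for Grin2d. That share of Grin2d rested on 2 of 61 counts, a count share of 3.28% with a 95% exact binomial interval of 0.400% to 11.3%. Such intervals, here and below, are of counts without length and cover counting error only.

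All 12 block B columns could be read. Grin2b held 100% in BRP528 and BRP540, and its share was 99.98% in BRP537, 99.9% in BRP541 and 99.4% in both BRP535 and BRP539. Its share was 98.6% in BRP529, 98.5% in BRP534, 98.1% in BRP536 and 98.05% in BRP543, with Grin2a at 1.34%, 1.48%, 1.84% and 1.95% of the same columns. In BRP538 Grin2a held 4.23% and in BRP542 it held 26.9%, which left 95.8% and 73.1% to Grin2b. BRP542 was thus the one column of the 19 in which Grin2a passed 5%. In BRP542 the count share of Grin2a, without length, was 21.02% of 10174 counts, with a 95% exact binomial interval of 20.2% to 21.8%. That interval covers counting error only, since the reads of 1 amplified library are not independent molecules. Grin2c reached 0.600% in BRP535 and 0.0697% in BRP541.

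In F, 3 columns could be read. Grin2b held 100% in F1, on 3342 counts, and 100% in F6, on 15914 counts. F2 held 74.4% Grin2b and 25.6% Grin2d, from 184 and 17 counts, and the count share of Grin2d there was 8.46% with a 95% exact binomial interval of 5.00% to 13.2%. The other 5 F columns held too few exonic counts on the 4 genes for a share.

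The same shares in intronic counts, per kb of intron, were different. In the 27 columns with at least 20 intronic counts on the 4 genes, Grin2b led in 14, Grin2a in 10 and Grin2d in 3, and the medians were 52.8% for Grin2b, 25.6% for Grin2a and 2.15% for Grin2d. In block B Grin2a led in 6 of 12 columns: BRP534 (94.6%), BRP542 (82.7%), BRP537 (58.0%), BRP528 (57.9%), BRP540 (50.9%) and BRP543 (50.0%). Grin2b led in the other 6, from 52.8% in BRP539 to 94.8% in BRP541. Thus BRP542 stood first among these columns for Grin2a in exons and second in introns. BRP528, where Grin2a held 57.9% of the introns, had no exonic count of it. In intronic counts without length, Grin2b passed Grin2a in BRP540 (50.5% against 49.4%) and in BRP543 (50.6% against 49.3%).

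In block A the intronic counts on the 4 genes were few, between 53 and 786 in a column, and Grin2a led in BRP567 (88.9%), BRP569 (86.2%) and BRP570 (96.9%). Grin2b led in BRP564 (100%), BRP566 (74.4%), BRP571 (59.0%) and BRP572 (94.9%). Grin2d led in BRP568 with 45.9%, on 4 counts beside 39 of Grin2a. In F the intronic share of Grin2b was 96.3% or more in F6, F7, F11 and F12, whereas Grin2a held 92.1% in F24 and Grin2d held 76.4% in F2 and 99.6% in F16. Without length, the intronic counts of F2 were 76.5% Grin2b and 22.9% Grin2d. Grin2d had both exonic and intronic counts in F2 and, with at most 2 exonic and 21 intronic counts, in BRP529, BRP536, BRP569 and BRP571.

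**Figure D3:**
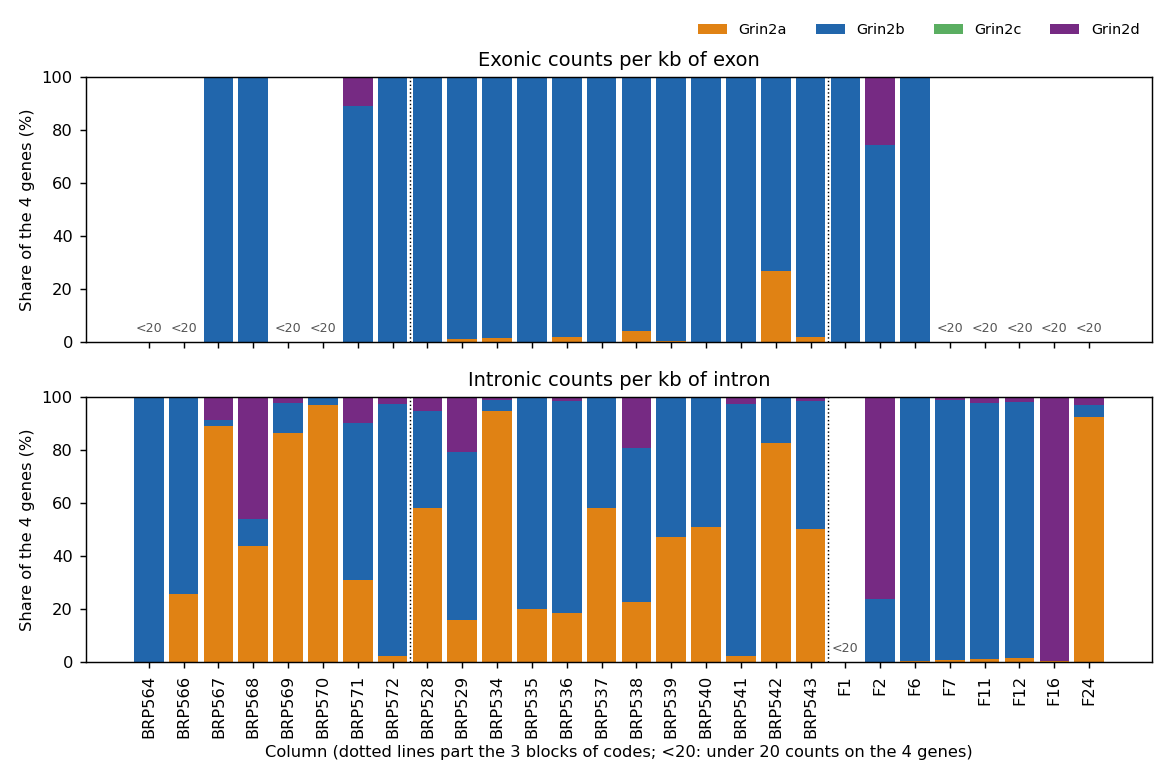
Stacked bars give, for each column, the share (%) of Grin2a, Grin2b, Grin2c and Grin2d in the exonic counts per kb of exon (upper panel) and in the intronic counts per kb of intron (lower panel), with columns of under 20 counts left empty. Grin2b fills 73.1% or more of every exonic bar, whereas Grin2a leads in 10 and Grin2d in 3 of the 27 intronic bars.

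Grin3a, which encodes the glycine-binding GluN3A, had another pattern. It was the one member with exonic counts in every block A column, from 28.5 CPM in BRP570 to 139 CPM in BRP566 with a median of 44.4 CPM, and apart from BRP566 the columns lay at 58.5 CPM or below. In block B, 5 of 12 columns (BRP534, BRP537, BRP538, BRP540 and BRP542) had no exonic count, and BRP536 had 3. The other 6 held 3.22 CPM in BRP543, 12.9 in BRP541, 15.7 in BRP535, 53.8 in BRP529, 76.0 in BRP539 and 127 in BRP528. BRP528 and BRP529, 2 of the 3 highest, were the block B columns with the 8 astrocyte markers above 1000 CPM. Without these 2 columns the median of the block went from 1.68 to 0.0676 CPM. BRP528 was also the only BRP column with GABAergic markers above 1000 CPM, at 3765 CPM. The part of either marker list in the Grin3a level was not tested. BRP539, with 76.0 CPM of Grin3a, held the 8 astrocyte markers at 0.246 CPM. BRP538 held those 8 markers at 4.21 CPM beside 2459 CPM of Slc1a2, and had 712 intronic counts of Grin3a and no exonic count. In F the columns split: F6 held 559 CPM, F11 384, F12 336 and F24 311, whereas F1 and F2 held 8 and 4 counts, and F7 and F16 held none. The 8 astrocyte markers summed to 0.332 CPM in F6, 1065 in F11, 1180 in F12 and 556 in F24. Their sum was 205 CPM in F1, 188 in F2, 13.1 in F7 and 0 in F16, and its part in the Grin3a level was not tested. The ranges of the 3 blocks overlapped for Grin3a.

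The members were also read as combinations, with at least 10 exonic counts taken as present. All 12 block B columns had Grin1 with Grin2b: 4 of them with Grin2a, 3 with Grin3a, 3 with both and 2 with neither. In block A, 3 columns had Grin3a alone, 3 had Grin2b with Grin3a, BRP570 had Grin1 with Grin3a, and BRP572 had Grin1, Grin2b and Grin3a. In F, F1 had Grin1 with Grin2b, F2 had those with Grin2d, F6 had those with Grin3a, F24 had Grin1 with Grin3a, F11 and F12 had Grin3a alone, and F7 and F16 had no member. With F11 and F12 counted as 1 cell, Grin3a alone was found in 1 F cell. Thus 8 columns, 5 with Grin3a alone and 3 with Grin2b and Grin3a, had counts of a partner subunit and fewer than 10 of Grin1.

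Levels of Grin1 and of its GluN2 partners were set beside each other per kb of exon in the 18 columns with at least 20 Grin1 counts. The ratio of summed Grin2a to Grin2d over Grin1 had a median of 1.21 and ran from 0 in F24 to 8.70 in F6. In block B it ran from 0.284 in BRP534, the column with the most Grin1, to 4.58 in BRP529, and was above 1 in 7 of 12 columns. In F it was 8.70 in F6, 6.07 in F1 and 3.12 in F2. The ratio depended on the length taken for each gene, because the annotated exons of Grin1 add up to 9.70 kb but its longest transcript has 4276 bases. With the longest transcripts the median was 0.553 and with coding lengths it was 2.05, so that the order of columns can be read but not whether GluN2 or GluN1 transcripts were in excess. The ratio of Grin3a to Grin1 per kb was 20.3 in BRP572, 17.96 in F24, 7.46 in F6 and 3.43 in BRP570, and it was above 1 in 2 of 12 block B columns, BRP528 (2.08) and BRP529 (1.19).

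Over the 28 columns, Grin1 and Grin2b were ordered alike, with a Spearman rho of 0.800 between their CPM. Within block B alone (12 columns) rho was 0.182. Grin3a was ordered against Grin1 (rho = -0.396 over 28 columns, -0.283 within block B) and weakly against Grin2b (-0.235 and -0.0508). The columns differ in depth and marker content, and the labelled cells differ in kit. These correlations are descriptions over cells of several kinds.

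Exonic and intronic counts of a member did not rise and fall closely together. Over the 28 columns rho between exonic and intronic CPM was 0.389 for Grin1, 0.412 for Grin2b and 0.421 for Grin3a. The median share of a gene's own counts that lay in introns, over columns with at least 20 counts of it, was 19.2% for Grin1 (22 columns), 59.8% for Grin2b (27), 41.0% for Grin3a (25) and 100% for Grin2a (24). Leaving out single columns moved the value for Grin1 to between 10.1% and 28.4%. These shares are not per length, and the introns add up to 18.3 kb in Grin1 and to 410 kb in Grin2a.

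Single columns lay at both extremes. At least 1000 intronic and fewer than 10 exonic counts were found for Grin2a in BRP528, BRP537, BRP540 and F24, for Grin2b in F7, F11 and F12, and for Grin1 in F16. F7, F11 and F12 held 6798, 6460 and 4903 intronic counts of Grin2b beside 1, 5 and 0 exonic counts, and F16 held 1103 intronic counts of Grin1 and no exonic count. The reverse, at least 100 exonic and fewer than 10 intronic counts, was found for Grin1 in BRP534, BRP570 and F1, for Grin2b in F1 and for Grin3a in BRP529 and BRP539. In BRP534 Grin1 had 9229 exonic counts beside 5 intronic counts, and in F1 Grin2b had 3342 beside 8. A column without exonic counts of a member therefore was in several cases not a column without any count of the gene.

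**Figure D4:**
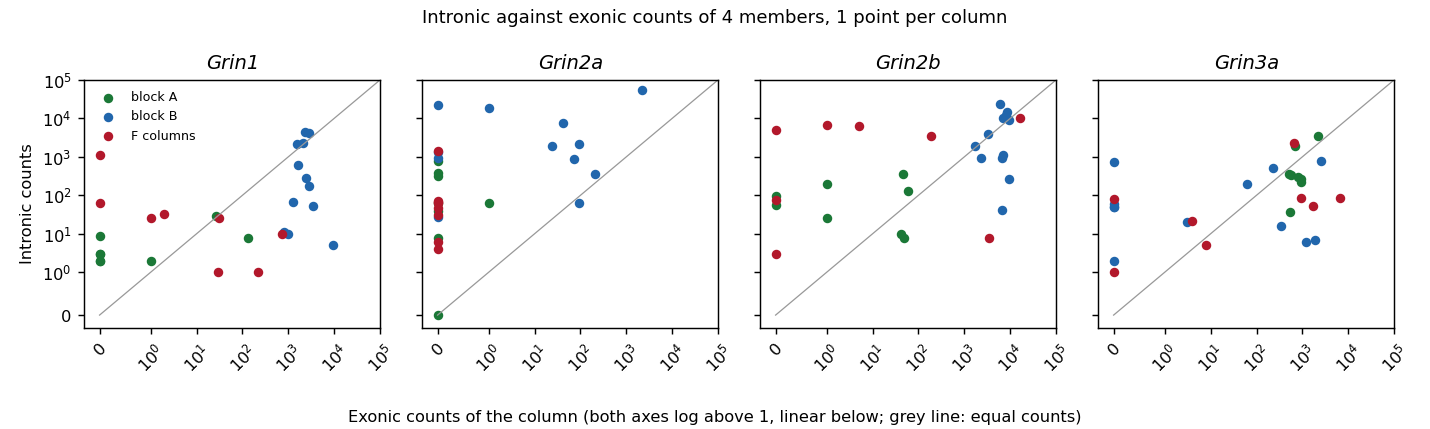
Each point is 1 column, with its exonic counts on the x axis and its intronic counts on the y axis for Grin1, Grin2a, Grin2b and Grin3a, on axes that are logarithmic above 1 count and linear below, coloured by block, with a grey line at equal counts. Grin2a lies above the line in every column but BRP529 and BRP564 and reaches 22524 intronic counts at 0 exonic counts, and 3 F columns of Grin2b lie at 4903 to 6798 intronic and at most 5 exonic counts.

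Genes of proteins that hold, modify or move NMDA receptors were taken as 5 lists. Of 12 scaffold genes of the postsynaptic density, 5 were higher in every block B column than in every block A column (Dlg2, Dlgap1, Dlgap2, Dlgap3 and Shank1), beside 2.57% of all genes tested. The scaffold genes with the highest median level per kb were Dlgap1, with block medians of 892 CPM in block B, 94.6 in block A and 867 in F, and Dlgap4, with 325, 94.9 and 1.31 CPM. Of 11 genes of kinases, phosphatases and effectors in the tables, 2 had this pattern, Camk2a and Camk2b, the calcium/calmodulin kinase subunits that bind the GluN2B tail. Camk2b had a median of 742 CPM in block B and 7.83 CPM in block A. The leading genes of that list were Ppp3ca, the catalytic subunit of calcineurin, with medians of 824, 306 and 32.0 CPM in block B, block A and F, and Fyn, a kinase that phosphorylates GluN2B, with 177, 87.2 and 4.52 CPM.

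Of 10 trafficking genes, 5 were higher in every block B column than in every block A column (Lin7a, Lin7b, Apba1, Nsf and Rph3a). Nsf, the ATPase that recycles fusion complexes, had medians of 1063, 60.4 and 128 CPM in block B, block A and F, and Ap2m1, the adaptor subunit of clathrin-mediated uptake, had 150, 111 and 4.63 CPM. None of the 9 tested genes of co-agonist supply and none of the 5 adhesion and extracellular genes had the pattern. Psat1, an enzyme of serine synthesis, had its highest block median in block A, with 337 CPM against 72.0 CPM in block B, and had no count in any F column. Srr, the serine racemase that makes D-serine, had medians of 65.1 CPM in block A and 65.7 CPM in block B, and reached at most 0.115 CPM in F. Lrp8, a reelin receptor, had medians of 140 CPM in block A and 142 CPM in block B and reached 5316 CPM in 1 F column, and Nlgn1, the synaptic adhesion protein neuroligin, had medians of 31.0 and 168 CPM and 0.242 CPM in F.

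No gene of the 5 lists was higher in every block A column than in every block B column, beside 3.27% of all genes. Against F, 8 list genes were higher in every block B column, beside 8.8% of all genes. They were 2 of 12 scaffolds (Dlg1 and Dlgap3) and 1 of 11 kinases, phosphatases and effectors (Src). The others were 2 of 9 co-agonist genes (Srr and Psat1) and 3 of 10 trafficking genes (Lin7b, Lin7c and Apba1). Of the 5 adhesion and extracellular genes, 0 had this pattern. No list gene was higher in every F column.

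The genes whose exonic level was ordered most like that of a member were found among 10192 genes with counts in at least 14 columns. For Grin1 they were Trnp1 (rho = 0.909), Fam189a1 (0.891) and Jakmip1 (0.891), and for Grin2b they were Stmn4, a stathmin (0.886), Rab9b, a small GTPase (0.864), and Crtac1 (0.863). For Grin3a the values were lower, with Ptprm, a receptor-type tyrosine phosphatase (0.698), Gnb2l1, a scaffold protein of the ribosome (0.658), and Rcan2, a regulator of calcineurin (0.651). Over the 20 BRP columns alone, 2 of the 10 nearest genes of Grin1 were among its 10 over all columns, and none of those of Grin2b or Grin3a, so the names depend on which columns are taken.

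The family has 1 more gene, Grin3b, for GluN3B, which had 97 exonic counts in all, at most 18 in a column (F6). Grina, which shares the name but encodes a membrane protein of the TMBIM family and no receptor subunit, had 87051 counts, with block medians of 112 CPM in block A, 162 in block B and 29.8 in F.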

How the data were processed

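RNA of 28 single mouse cortical cells was sequenced. The authors deposited raw whole-number counts per gene and column, in an exonic and an intronic table, without normalization. Per the labels, bcl2fastq 2.17, STAR 2.4.0 and mm10 were used. The counting tool, the annotation and the strand setting are not given in the sources used here, so reads of overlapping genes on opposite strands may not be told apart. All 28 columns were used, with 0 matched to a sample. The members and all gene lists were chosen with earlier results of these data known.

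CPM is counts per 1000000 exonic (or intronic) counts of the column. Gene models came from GENCODE M21 on GRCm38, matched by symbol for 93.0% of the genes in both tables, all members included. A listed gene and some sequence are not reported here. Shares and ratios required at least 20 counts, and the overlap background required counts in at least 3 columns. Named partner genes were the 2 of each list with the highest median level per kb, and the nearest genes were the 3 with the highest Spearman correlation among genes with at least 1000 counts. Other genes of the lists, and columns singled out, were named after their values were seen. Intervals are 95% exact binomial and cover counting error only. Alternatives were TMM factors (edgeR 4.0.16), DESeq2 1.42.0 size factors, other lengths, thinning to 2000000 counts, left-out columns, and 2 choices added after seeing the data. Python 3.11.15, pandas 2.3.3, scipy 1.17.1 and R 4.3.3 were used.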

Additional observations from a re-analysis of the deposited data

Results flagged for a closer look

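Block A and F, but not block B, were searched for far columns, for members with at least 10 exonic counts in a column of the block. In 5 cases the highest column of a block lay far from the others of that block, by the ratio of its gap to the block's range (Dixon's 95% critical value, which chance passes in about 1 of 20 groups, and more often where most columns are at or near 0, as here). For Grin1 these were BRP570 in block A, at 6.57 CPM, and F6 in F, at 59.3 CPM. F6 was also far from the other F columns for Grin2b, at 1321 CPM, and F2 was far from them for Grin2d, at 3.07 CPM. For Grin3a it was BRP566 in block A, at 139 CPM, which also held the most intronic counts of Grin3a of all 28 columns, 3514. These are given as values, and their causes were not tested.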

How the results depend on the processing

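Grin2b led the exonic GluN2 counts in every readable column under each length tried and with at least 100 counts. By introns per kb it led in 14 columns. Its median share was 99.4% per kb of exon, 99.9% without length and with coding length, 99.4% with the longest transcript, 99.4% in columns with at least 100 counts and 52.8% by introns. The median ratio of summed Grin2a to Grin2d over Grin1 was 1.21, and 3.10 without length, 2.05 with coding length and 0.553 with the longest transcript. In block B the median level of Grin1 (102 CPM) became 75.2 with TMM factors, 42.4 with DESeq2 size factors, 134 with introns added and 113 without BRP528 and BRP529. That of Grin2b (316 CPM) became 246, 141 and 404 under the first 3 of these, 336 without the 10 genes with most counts and 327 after thinning, and that of Grin3a (1.68 CPM) became 13.0 with introns added and 0.0676 without BRP528 and BRP529. Pooled over columns instead of as a median, the intronic share of the counts was 32.6% for Grin1, 97.7% for Grin2a, 53.6% for Grin2b and 33.8% for Grin3a. Grin1 and Grin2b stayed apart between the BRP blocks with either scaling. Leaving out each column in turn gave block B medians of 93.9 to 110 CPM for Grin1, 315 to 317 CPM for Grin2b and 0.135 to 3.22 CPM for Grin3a. Since the columns carry no group, depth and identity limit every comparison of blocks. No paired analysis was possible because the columns carry no replicate number.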
